A study of Mus musculus with 8 samples.

Results

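The genes described here are 10 transcription regulators of the programme through which endurance training builds oxidative muscle: the coactivators Ppargc1a and Ppargc1b, the estrogen-related receptors Esrra, Esrrb and Esrrg, the fatty acid receptors Ppara and Ppard, the respiratory factors Nrf1 and Tfam, and the muscle regulator Perm1. They were chosen by name from the 21207 gene symbols shared by all 8 libraries, and all 10 had UMIs in every library. UMIs are the molecular tags by which copies of 1 RNA molecule are collapsed to a single count. The clearest differences lay between fibre types of the same muscle. Of the 10 regulators, 7 were higher in nuclei of type IIa fibres than in those of type IIb fibres, led by Esrrb at 15.8-fold, Ppara at 6.56-fold and Esrrg at 5.87-fold. Of all 10842 genes tested there, 29.8% passed, 14.2% of all being higher in IIa. None of the 10 passed the test between Old and Young or between Running and Sedentary muscle, where over all nuclei 0 of 20324 genes passed.

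PGC-1 alpha, the product of Ppargc1a, does not bind DNA itself. It is recruited by nuclear receptors and other factors and brings in the machinery that opens chromatin and starts transcription, and exercise and cold are known to raise its level. Its partners include the estrogen-related receptors, which sit at genes of the respiratory chain and the citric acid cycle, and the PPAR receptors, which sit at genes of fatty acid uptake and oxidation. NRF1 drives nuclear genes of the respiratory chain and also Tfam, whose product packages mitochondrial DNA and starts its transcription. In mouse limb muscle, type IIb fibres are fast and glycolytic, type IIx fibres intermediate, and type IIa and slow fibres rich in mitochondria.

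Single nuclei of the gastrocnemius, a calf muscle, were profiled in wild-type (WT) C57BL/6 mice. Old mice were 20 months and Young mice 3 months of age. Running mice trained on a treadmill for 2 months from an age of 11 months, and Sedentary mice of the same age did not. Each group held 2 libraries, replicate 1 made with 10x Genomics droplets and replicate 2 with the DNBelab system (called the second set here), and nothing states whether a library came from 1 animal or from several. P-values between groups therefore measure only the spread between these libraries. All groups share the WT genotype, and no strain or allele separates them.

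Depth differed between the sets, with 23390969 to 44454427 UMIs per library in the 10x set and 4839878 to 9278034 in the second set. Within pairs of 10x libraries 30 to 46 cell barcodes were shared, while the second set names its nuclei by running numbers that cannot be compared. Nuclei were assigned to classes from marker genes, and 37564 of 64803 retained nuclei lay in myofibre clusters. A myofibre nucleus received a fibre type from the myosin heavy chain gene (Myh4 for IIb, Myh1 for IIx, Myh2 for IIa, Myh7 for slow) that held at least 60% of its 5 or more myosin UMIs. In all, 32790 nuclei were typed. Among myofibre nuclei with 5 or more myosin UMIs, typed or not, 3270 lay within 10 percentage points of that limit on either side. Old replicate 2 stood apart, since 88.1% of its nuclei fell into unnamed clusters led by long genes and only 105 IIb, 33 IIx and 23 IIa nuclei remained. Young replicate 2 had 27.5% of its nuclei in clusters led by long genes and Sedentary replicate 1 had 10.2%. Sedentary replicate 1 was also the 10x library with the smallest share of IIb nuclei, at 53.2% of typed nuclei. Running replicate 2 held 8 IIx and 11 IIa nuclei, fewer than the 20 required, so comparisons of those types rest on the other 7 libraries.

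The windows just upstream of 4 of the regulators are shown because these genes differed together between fibre types and each window holds one of the searched letter strings. RefSeq windows of 9 of the 10 regulators were searched, without Ppargc1b. None of the strings was found in the windows of Esrrg, Esrra, Ppard, Nrf1 and Tfam or at the second start of Esrrb, although Esrrg and Esrra also differed between fibre types. Each sequence covers the 250 bases before the RefSeq start on GRCm38.p6, 5′ to 3′ on the gene's own strand, with the matches in capitals. In Ppargc1a (chr5:51567726-51567975, minus strand) the capitals mark CGTCA, the reverse complement of the short cAMP response element TGACG, 49 bases before the start. In Perm1 (chr4:156215677-156215926, plus strand) they mark TGACCT, the reverse complement of the nuclear receptor hexamer AGGTCA, 202 bases before the start. In Ppara (chr15:85735526-85735775, plus strand) they mark the palindromic NRF1 site 31 bases and TGACG 222 bases before the start. In Esrrb (chr12:86360867-86361116, plus strand), the regulator with the largest difference and the first of its 2 listed starts, they mark TGACG 158 and 117 bases before the start.
Ppargc1a: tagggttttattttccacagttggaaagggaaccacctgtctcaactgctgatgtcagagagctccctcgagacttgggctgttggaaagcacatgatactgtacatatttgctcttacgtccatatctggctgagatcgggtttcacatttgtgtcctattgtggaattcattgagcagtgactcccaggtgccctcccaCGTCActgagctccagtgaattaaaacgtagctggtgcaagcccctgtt
Perm1: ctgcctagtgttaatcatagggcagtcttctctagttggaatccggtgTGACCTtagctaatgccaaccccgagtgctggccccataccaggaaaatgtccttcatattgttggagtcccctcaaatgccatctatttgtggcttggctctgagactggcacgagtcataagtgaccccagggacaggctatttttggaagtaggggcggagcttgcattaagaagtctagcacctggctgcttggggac
Ppara: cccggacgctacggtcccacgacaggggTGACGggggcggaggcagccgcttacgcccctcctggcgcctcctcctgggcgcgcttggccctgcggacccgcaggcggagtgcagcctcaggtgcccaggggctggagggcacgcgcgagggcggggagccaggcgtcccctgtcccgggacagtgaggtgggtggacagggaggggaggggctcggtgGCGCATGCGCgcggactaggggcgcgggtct
Esrrb: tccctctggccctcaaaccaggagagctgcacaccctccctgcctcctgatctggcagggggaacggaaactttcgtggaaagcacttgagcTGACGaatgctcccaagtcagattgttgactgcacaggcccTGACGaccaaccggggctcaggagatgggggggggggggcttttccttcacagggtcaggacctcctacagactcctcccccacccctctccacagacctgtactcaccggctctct

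The strings were searched on both strands. Among 32851 windows of the same length TGACG was present in 17.8%, AGGTCA in 14% and the NRF1 site in 0.782%. The longer string TNAAGGTCA, the response element of the estrogen-related receptors, was present in 1.14% of windows and in none of the windows searched for these regulators. A match is a run of letters, and whether any factor binds there was not measured.

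To ask how the regulators were distributed among fibres, the UMIs of each fibre type were summed within each library and compared between types with the library as a block (quasi-likelihood test of edgeR, with p-values adjusted over all 10842 genes tested). Between type IIa and type IIb nuclei 29.8% of all genes passed, 14.2% of all being higher in IIa, and 7 of the 10 regulators were higher in IIa. Between type IIx and type IIb nuclei 17.7% of all genes passed, 8.62% of all being higher in IIx, and these 7 regulators were also higher in IIx. The median log2 difference over the 10 regulators was 1.004 for IIa and 0.77 for IIx, against -0.07 over all genes in both comparisons. Levels are given as CPM, the UMIs of a gene per 1000000 UMIs of that fibre type and library. They follow the order Old, Young, Running and Sedentary replicate 1, then Old, Young and Sedentary replicate 2.

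**Figure D1:**
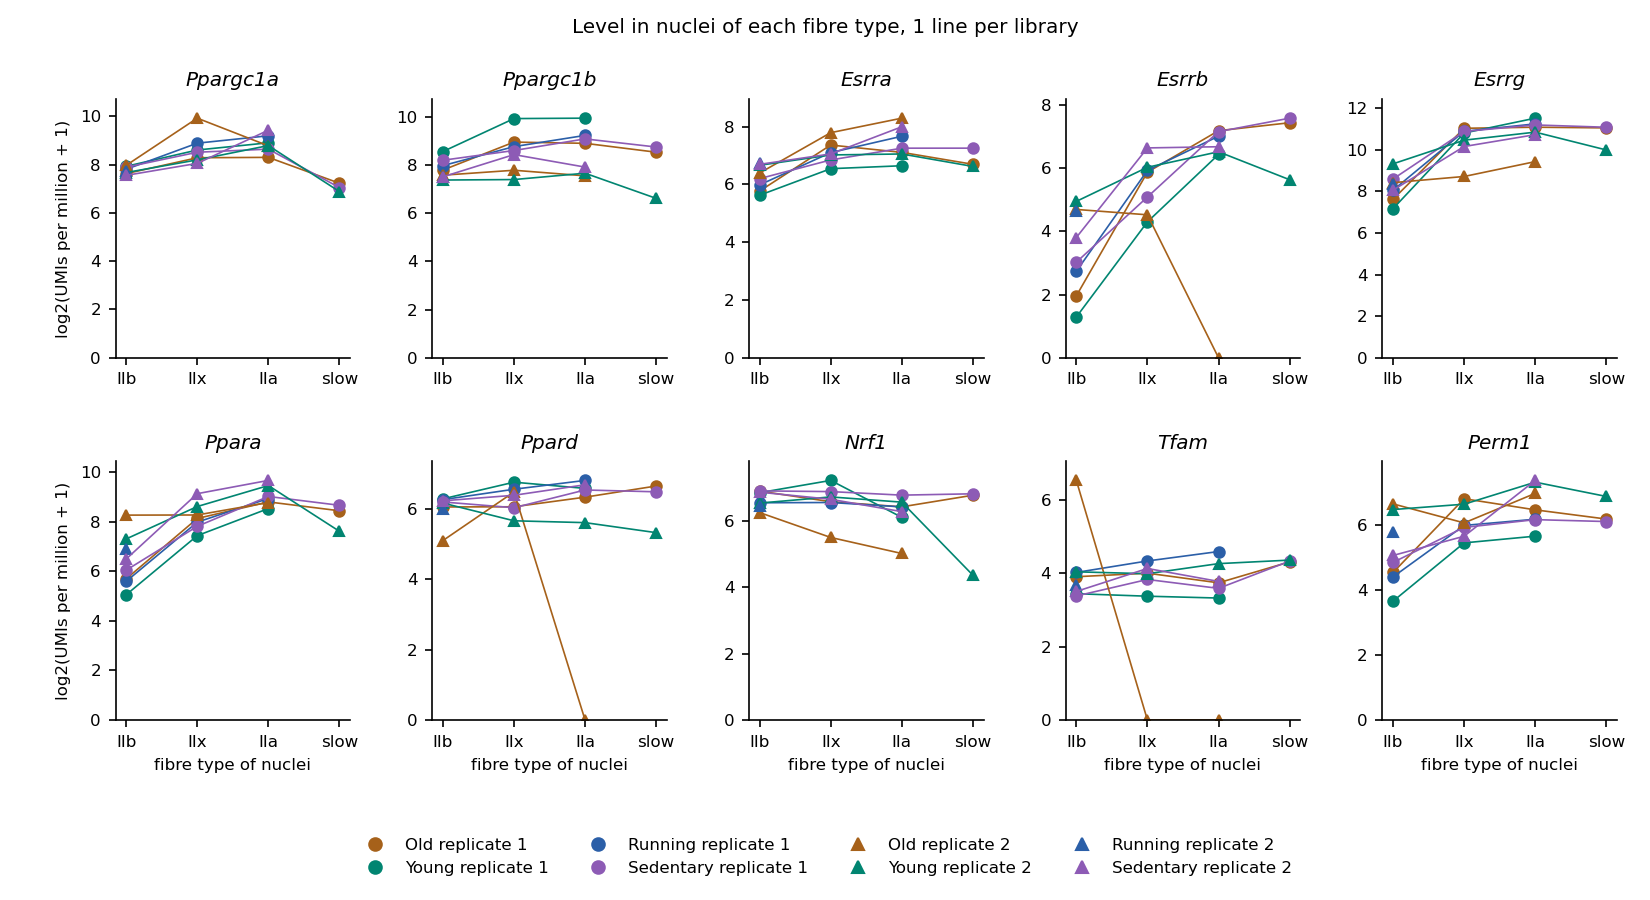
Level of each regulator in nuclei of the 4 fibre types, as log2(CPM + 1), with 1 line per library (circles, replicate 1, 10x set; triangles, replicate 2, second set). Esrrb, Esrrg and Ppara rose from IIb to IIx and IIa in every 10x library, while the 4 points at 0 (Esrrb, Ppard and Tfam in IIa, Tfam in IIx) belong to Old replicate 2.

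Ppargc1a, which encodes PGC-1 alpha, was higher in type IIa and IIx nuclei than in type IIb nuclei of all 7 libraries. In IIb nuclei its level was 197, 243, 223, 237, 249.2, 203 and 187 CPM. In IIa nuclei it was 314, 478, 585, 398, 438, 441 and 686 CPM, so that no IIa value fell inside the IIb range. The difference from IIb was 0.95 ± 0.15 (log2, SE; adjusted p = 3.6e-06 by edgeR) for IIa, or 1.93-fold. For IIx it was 0.72 ± 0.15 (adjusted p = 0.00049). IIx levels ran from 264 to 473 CPM except in Old replicate 2, where 44 UMIs in 33 nuclei gave 969.8. Within the 10x set alone the IIa difference was 0.86 ± 0.12 and within the second set alone 1.25 ± 0.24.

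Ppargc1b encodes PGC-1 beta, a close relative of PGC-1 alpha that also coactivates the estrogen-related receptors. Its level in IIb nuclei was 222, 378, 252, 294, 191, 166 and 182 CPM, and in IIa nuclei 480.0, 991, 603, 545, 188, 202 and 241. The gap was wide in the 10x libraries and narrow in the second set, where Old replicate 2 showed none. The fitted difference was 0.76 ± 0.16 for IIa (adjusted p = 0.00022 by edgeR) and 0.62 ± 0.16 for IIx (adjusted p = 0.0048). The IIx call was lost without Old replicate 1 (0.47, adjusted p = 0.088) and without Young replicate 1 (0.49, adjusted p = 0.069). In the 10x set alone the Ppargc1b difference in IIa was 1.079 ± 0.12 (adjusted p = 2.7e-07), and in the second set alone it was 0.22 ± 0.27 (adjusted p = 0.83).

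Perm1, a muscle protein that is induced by PGC-1 and the estrogen-related receptors and acts back on their targets, followed the same order. In IIb nuclei its level was 22.3, 11.6, 20.2, 27.9, 99.7, 88.3 and 32.5 CPM. In IIa nuclei the level of Perm1 was 87.7, 49.6, 71.6, 71.0, 125, 159 and 165 CPM, above IIb in 7 of 7 libraries. The difference was 1.46 ± 0.20 for IIa (adjusted p = 2.2e-07 by edgeR) and 1.30 ± 0.19 for IIx (adjusted p = 3.1e-06). The IIx value was 1.69 ± 0.15 within the 10x set alone and 0.13 ± 0.42 within the second set alone (adjusted p = 0.99), so that Perm1 passed in IIx in the 10x libraries but not in the second set. Second-set counts were small, with 3 to 20 UMIs of Perm1 in a IIx sum.

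Among the estrogen-related receptors, orphan nuclear receptors that are active without estrogen, Esrrb and Esrrg differed far more between fibre types than Esrra did. Esrrb in IIb nuclei stood at 2.89, 1.44, 5.67, 7.14, 24.9, 29.9 and 13 CPM, and in IIa nuclei at 145, 85.6, 128, 142, 0, 90.9 and 102. Apart from Old replicate 2, every IIa value was at least 85.6 and no IIb value was above 29.9 CPM. That exception counted 0 of 31987 UMIs, which allows up to 93.8 CPM for Esrrb by counting error alone. The difference was 3.98 ± 0.37 (log2, SE; adjusted p = 8.9e-11 by edgeR) for IIa and 2.69 ± 0.39 (adjusted p = 2.0e-06) for IIx. Within the 10x set alone the IIa difference in Esrrb was 4.93 ± 0.23, and within the second set alone 1.85 ± 0.51 (adjusted p = 0.0052). The IIx difference in the second set alone was 1.55 ± 0.58 and did not pass (adjusted p = 0.20).

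The smaller contrast of Esrrb in the second set went with a higher level in its IIb nuclei. Transcripts of Myh2, the type IIa myosin, were also higher there, at 288 to 1244 CPM in the IIb nuclei of the second set against 4.0 to 82 in those of the 10x set. The IIb rule itself limits Myh2 to a minority of the myosin UMIs. What part these transcripts of another fibre type play in the Esrrb level was not tested.

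Esrrg was at 196, 143, 265, 385, 341, 639 and 265 CPM in IIb nuclei. In IIx nuclei it stood at 2090.4, 1784, 1888, 1881, 419, 1407 and 1139, and in IIa nuclei at 2166, 2929, 2421, 2336, 688, 1839 and 1690.2 CPM. Every IIa value of Esrrg lay above every IIb value, and the lowest IIa and IIx values were both from Old replicate 2. The difference from IIb was 2.55 ± 0.27 for IIa (adjusted p = 2.0e-09 by edgeR) and 2.15 ± 0.27 for IIx (adjusted p = 1.7e-07). Esrrg passed in IIa within each set alone (10x, 3.29 ± 0.18; second set, 1.73 ± 0.23). The gene spans 606095 bases on chromosome 1 and is the longest of the 10.

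Esrra, the widely expressed family member and a direct partner of PGC-1 alpha, ran from 48.4 to 102.5 CPM in IIb nuclei and from 99.1 to 313 in IIa nuclei. The IIa level was higher in 7 of 7 libraries and so was the IIx level. Esrra differed by 1.06 ± 0.15 in IIa (adjusted p = 9.2e-07 by edgeR) and by 0.83 ± 0.15 in IIx (adjusted p = 9.4e-05). In the second set alone the IIa difference was 0.83 ± 0.30 and the IIx difference 0.47 ± 0.33, and neither passed (adjusted p = 0.061 and 0.77).

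The PPAR receptors, which switch on fatty acid oxidation when lipids bind them, divided. Ppara was at 50.8, 32.2, 47.3, 65.1, 307, 157 and 89.2 CPM in IIb nuclei and at 445, 369.5, 489.8, 519, 438, 705 and 813 in IIa nuclei. Each library was higher in IIa, and the narrowest gap was in Old replicate 2. The difference was 2.71 ± 0.23 (adjusted p = 1.6e-11 by edgeR) in IIa and 1.84 ± 0.23 (adjusted p = 1.9e-07) in IIx, and Ppara passed within each set alone in both comparisons.

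Ppard, the PPAR known for raising oxidative capacity when overexpressed in muscle, ranged from 33.2 to 76.8 CPM in IIb nuclei and from 47.7 to 111 in IIa nuclei, leaving out the 0 of Old replicate 2. Its difference was 0.16 ± 0.15 in IIa (adjusted p = 0.48 by edgeR) and -0.01 ± 0.15 in IIx (adjusted p = 0.98), with a 95% interval of 0.909 to 1.38-fold for IIa. The 10x set alone gave 0.34 ± 0.12 for Ppard in IIa, which passed (adjusted p = 0.033), and the second set alone gave -0.32 ± 0.43.

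The respiratory factors did not pass. Nrf1 was lower in IIa than in IIb nuclei in 6 of 7 libraries, with levels of 31.3 to 108 CPM in IIa and 74.8 to 118 in IIb. The difference was -0.37 ± 0.15 (adjusted p = 0.063 by edgeR), close to the threshold, and it passed when Old replicate 2 was left out (-0.40, adjusted p = 0.046), without Sedentary replicate 1 (-0.56, adjusted p = 0.036) and without Young replicate 2 (-0.49, adjusted p = 0.0076). Tfam had few UMIs, between 9.0 and 23.1 CPM in the IIa nuclei of the libraries that counted any. Its IIa difference was -0.01 ± 0.25 (adjusted p = 0.98), with a 95% interval of 0.708 to 1.38-fold. For Nrf1 the 95% interval was 0.627 to 0.950-fold.

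**Figure D2:**
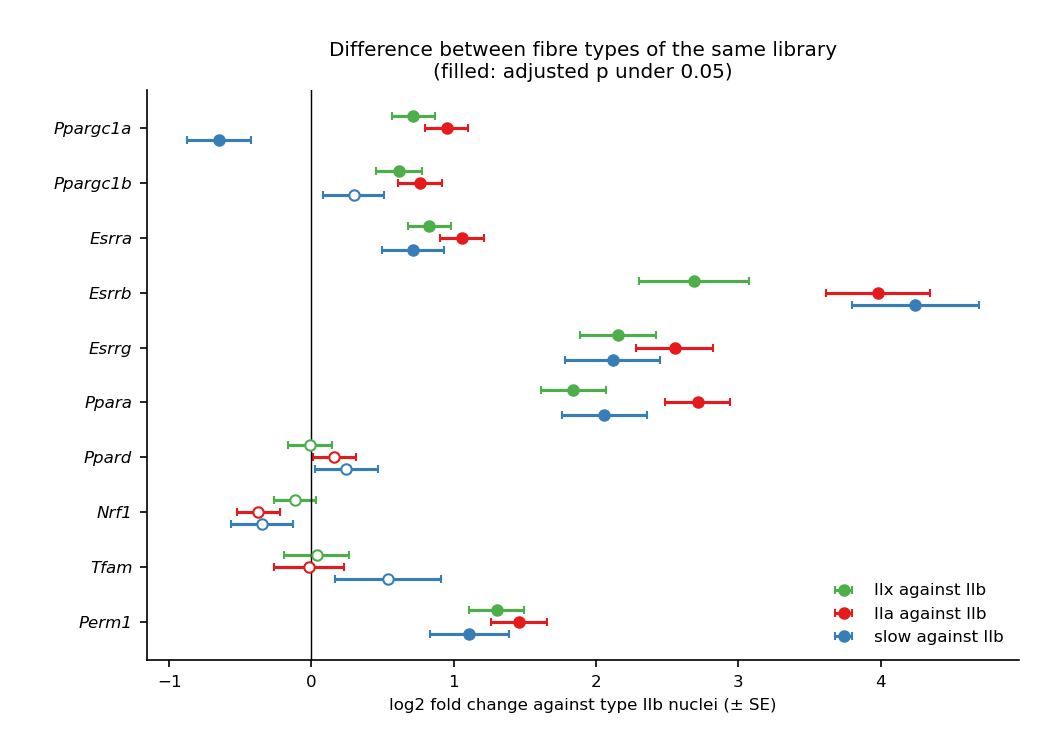
Difference of each regulator from type IIb nuclei of the same libraries (log2 fold change ± SE) for IIx, IIa and slow nuclei; filled points passed an adjusted p of 0.05. Esrrb, Esrrg and Ppara lie farthest to the right, and Ppargc1a in slow nuclei is the filled point on the left.

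IIa and IIx nuclei were then compared directly, where 4.4% of all genes passed, 2.56% of all being higher in IIa, and 2 of the 10 regulators were higher in IIa. Esrrb was higher in IIa by 1.30 ± 0.36 (adjusted p = 0.027 by edgeR), or 2.46-fold, and Ppara by 0.87 ± 0.22 (adjusted p = 0.016), or 1.83-fold. Both calls were lost with set and group terms in place of the library block (adjusted p = 0.13 and 0.095). Each was also lost without Sedentary replicate 1 (Esrrb 1.03, adjusted p = 0.19; Ppara 0.78, adjusted p = 0.057) and without Young replicate 1 (Esrrb 1.24, adjusted p = 0.052; Ppara 0.85, adjusted p = 0.054). For Esrrg the difference was 0.40 ± 0.25 (adjusted p = 0.52), with a 95% interval of 0.941 to 1.85-fold. Ppargc1a gave 0.23 ± 0.16 (adjusted p = 0.57), with an interval of 0.951 to 1.45-fold. Both intervals include no difference.

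Slow nuclei were numerous enough in 3 libraries, with 132 in Old replicate 1, 316 in Sedentary replicate 1 and 42 in Young replicate 2. There 23.7% of all genes passed against IIb (12% higher and 11.6% lower), and 6 of the 10 regulators did, 5 higher and 1 lower. Esrrb showed the largest difference of the 10, at 172.8, 191 and 48.8 CPM in those libraries (log2 difference 4.24 ± 0.45, adjusted p = 3.1e-09 by edgeR). Esrrg was higher by 2.12 ± 0.33, Ppara by 2.06 ± 0.30, Perm1 by 1.11 ± 0.28 and Esrra by 0.71 ± 0.22 (adjusted p = 0.014). Esrra was higher in 2 of the 3 libraries, and its call was lost without Running replicate 1, a library with too few slow nuclei that enters the fit through its other fibre types (0.58, adjusted p = 0.055) and with no filter on low counts (0.42, adjusted p = 0.23).

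Ppargc1a went the other way in slow nuclei. Its level there was 149, 131 and 117 CPM, below the IIb level of the same library in 3 of 3 and below the IIa level in 3 of 3. The difference was -0.65 ± 0.23 from IIb (adjusted p = 0.034 by edgeR) and -1.60 ± 0.23 from IIa (adjusted p = 1.3e-05). Between slow and IIa nuclei 5% of all genes passed, 1.92% of all being lower in slow nuclei, and Ppargc1a was the 1 regulator among them. The comparison with IIb is the weaker of the pair, since it was lost with DESeq2 size factors (-0.51, adjusted p = 0.097), with set and group terms in place of the library block (-0.75, adjusted p = 0.059) and without Young replicate 1 (-0.63, adjusted p = 0.057), which holds no slow nuclei. Ppargc1b in slow nuclei was at 371, 431 and 97.5 CPM and differed from IIb by 0.30 ± 0.22 (adjusted p = 0.37).

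Other genes of the pathway, from lists of known partners, upstream signals, mitochondrial DNA factors and targets, were read in the same fits. The oxidative targets were mostly higher outside IIb: 35 of 40 tested passed higher in IIa and 1 lower, and 31 passed higher in IIx. Over all genes 29.8% passed in IIa (14.2% higher) and 17.7% in IIx (8.62% higher). The median log2 difference of the targets from IIb was 0.92 in IIa and 0.70 in IIx, against -0.07 over all genes in both. The 6 targets with the smallest p in IIa were the mitochondrial creatine kinase Ckmt2 at 3.59-fold (1.85 ± 0.16, adjusted p = 3.9e-11 by edgeR), the lipase Lpl at 7.45-fold (2.90 ± 0.27, adjusted p = 8.5e-11), the fatty acid transporter Cd36 at 7.02-fold, the carrier Fabp3 at 5.39-fold, and the beta-oxidation enzymes Acadl at 3.02-fold and Hadha at 2.90-fold. The 1 target that was lower was the uncoupling protein Ucp3 (log2 -0.50), named here after its value was seen. In IIx the kinase Pdk4, which holds back pyruvate entry, was 3.22-fold higher than in IIb, and it was lower in IIa than in IIx (-0.67 ± 0.16, adjusted p = 0.0082). In slow nuclei 18 targets were higher than in IIb and 2 lower, led by Lpl at 9.49-fold, where 12% of all genes were higher and 11.6% lower. Against IIa the targets Idh3a (-1.57 ± 0.27), Vegfa (-1.08 ± 0.21) and Ucp3 (-1.14 ± 0.34) were lower in slow nuclei, as were 1.92% of all genes.

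Of 29 genes tested for signals known to act on Ppargc1a, 10 were lower and 1 higher in IIa than in IIb and the rest did not pass, where 29.8% of all genes passed. The list median was -0.19, against -0.07 over all genes. In IIx 6 were lower and none higher, where 17.7% of all genes passed. Prkag3, the AMP kinase gamma subunit of glycolytic muscle, was 8.56-fold lower in IIa (-3.10 ± 0.18, adjusted p = 1.3e-14 by edgeR) and 5.65-fold lower in IIx. The AMP kinase subunit Prkab2 was also lower in IIa, at a log2 difference of -1.36 ± 0.15. The calcium-dependent kinases Camk2a and Camk2d gave -1.20 ± 0.14 and -0.68 ± 0.15, and the calcineurin subunits Ppp3ca and Ppp3cb gave -0.94 ± 0.12 and -0.65 ± 0.13. In IIx the muscle transcription factors Mef2c (-0.58 ± 0.14) and Mef2a (-0.56 ± 0.16) were also lower than in IIb. In slow nuclei 2 genes of the list were higher than in IIb and 11 lower, where 12% of all genes were higher and 11.6% lower. Map2k6, a kinase upstream of p38, was 2.79-fold higher there (1.48 ± 0.29, adjusted p = 0.00016), and Prkaa2, a catalytic subunit of AMP kinase, was lower (-0.97 ± 0.17).

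Coactivators, corepressors and partner receptors were mixed, with 4 higher and 5 lower of 18 in IIa. Rxrg, a retinoid X receptor that pairs with the PPARs, was lower (-1.50 ± 0.18, adjusted p = 3.3e-08 by edgeR), as were the corepressor Nrip1 (-0.87 ± 0.16), the deacetylase Hdac3 (-0.88 ± 0.17) and the PGC-1 relative Pprc1 (-0.74 ± 0.22). The thyroid hormone receptor Thra was higher (0.70 ± 0.14) and so was Pparg (1.12 ± 0.26), the PPAR best known from adipocytes. Nuclear factors and machinery of mitochondrial DNA expression gave 1 call of 14 in each of the 3 comparisons with IIb: the mitochondrial RNA polymerase Polrmt lower in IIa (-0.74 ± 0.24, adjusted p = 0.018), Gabpa higher in IIx (0.46 ± 0.16, adjusted p = 0.035) and Yy1 lower in slow nuclei (-0.63 ± 0.21, adjusted p = 0.023). Over all genes 29.8%, 17.7% and 23.7% passed in these comparisons.

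**Figure D3:**
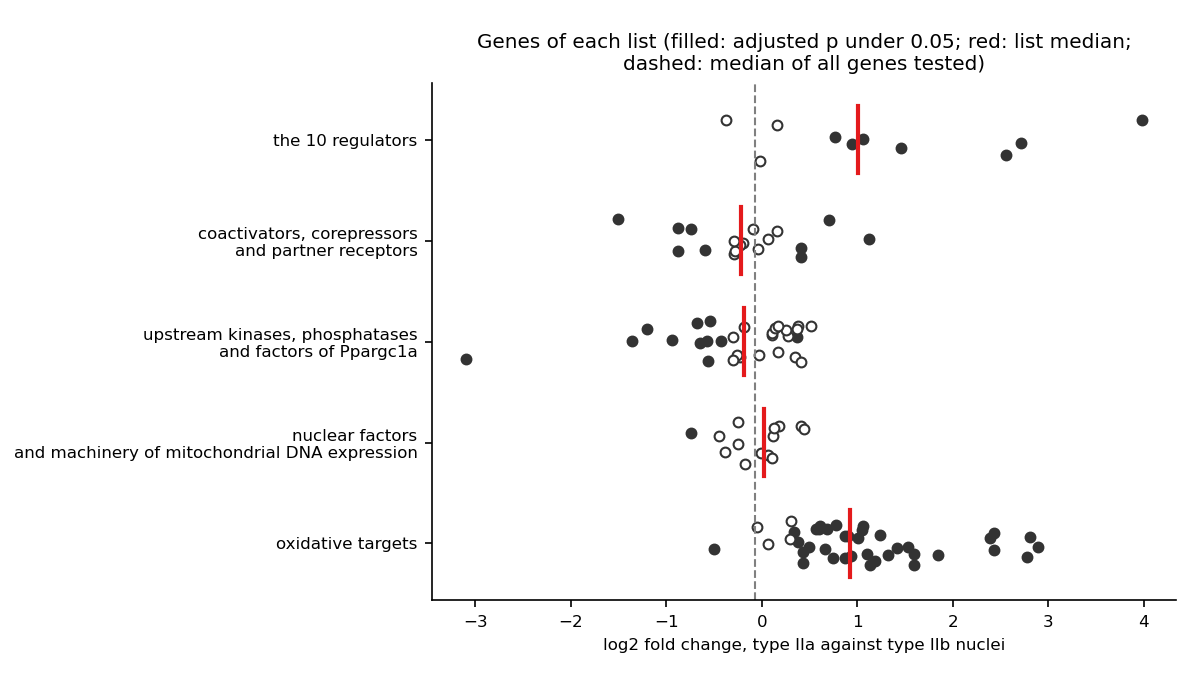
Log2 fold change between type IIa and type IIb nuclei for the 10 regulators and the genes of 4 pathway lists (points; filled, adjusted p under 0.05), with the median of each list in red and that of all genes tested as a dashed line. Oxidative targets lie mostly to the right, at a median of 0.92, and upstream signals spread to the left as far as Prkag3.

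Beyond the fibres, nuclear classes could be compared in the 10x set. These levels are a description with no test, since clustering used other genes of the same nuclei. The 10 regulators were kept out of the genes that shaped the clusters. The level that RNA of other nuclei can give was gauged by Ttn, the giant sarcomere gene, whose level in 6 classes outside the fibre (endothelial, fibro-adipogenic progenitor, macrophage, mural, muscle stem cell and adipocyte) was 7.33% to 34.2% of the myofibre level of the same library.

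Nrf1 was the regulator with the clearest signal outside the fibre. Its level in those 6 classes was 117% to 258% of the myofibre level and stood above the Ttn share in 24 of 24 sums. Endothelial nuclei were at 238, 268, 218 and 244 CPM in Old, Young, Running and Sedentary replicate 1, against 113, 115, 93.0 and 116 in myofibre nuclei. Muscle stem cells were at 251, 267, 239.5 and 285. Adipocytes were lowest of the 6, at 131 to 162 CPM. The ranges of Nrf1 in myofibre and in each of the 6 classes did not overlap over the 4 libraries.

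Ppargc1b was also high in mural nuclei, the pericytes and smooth muscle of vessels, at 231, 361.5, 294.5 and 282 CPM (same library order), which is 75.7% to 102% of the myofibre level. Endothelial nuclei, next to them in the vessel wall, held 49.7 to 144 CPM of Ppargc1b. The ranges of the 2 vessel classes did not overlap.

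Ppargc1a outside the fibre was at 14.2% to 52.2% of the myofibre level, with 35.7 to 130.2 CPM in mural and 92.5 to 139 in adipocyte nuclei. In Schwann cell nuclei it was 146, 130, 501 and 151 CPM, but the high value came from 24 UMIs in 26 nuclei of Running replicate 1. Specialised fibre nuclei were lower than IIb nuclei, with 105 to 115 CPM at the neuromuscular junction and 133 to 183 at the myotendinous junction.

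In endothelial nuclei the level of Esrrg was 228, 47.9, 199 and 368 CPM in Old, Young, Running and Sedentary replicate 1, the same order of libraries as its myofibre levels of 611, 231, 549.8 and 1181. As a share of the myofibre level Esrrg was at 7.61% to 55.8% over the 6 classes and above the Ttn share in 16 of 24 sums. Perm1 was above it in 16 of 24 and Esrrb in 17 of 24, and the share of their signal that came from other nuclei was not tested. Esrrb was higher at the neuromuscular junction than in IIb nuclei in 3 libraries. It stood at 35.3, 43.4 and 205 CPM in Old, Running and Sedentary replicate 1 (6, 7 and 35 UMIs). Young replicate 1 had 0 UMIs of Esrrb in 25 such nuclei. In IIa nuclei of the same 3 libraries Esrrb was at 145, 128 and 142 CPM. Junction nuclei were not split by fibre type, and the part of fibre type in their Esrrb level was not tested. Ppard was detected broadly, at 62.6% to 179% of the myofibre level and above the Ttn share in 24 of 24 sums, with 106, 126, 141 and 48.9 CPM in macrophages. Ppara stood at 80.7 to 103 CPM in adipocytes, against 40.5 to 209 in myofibre nuclei.

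**Figure D4:**
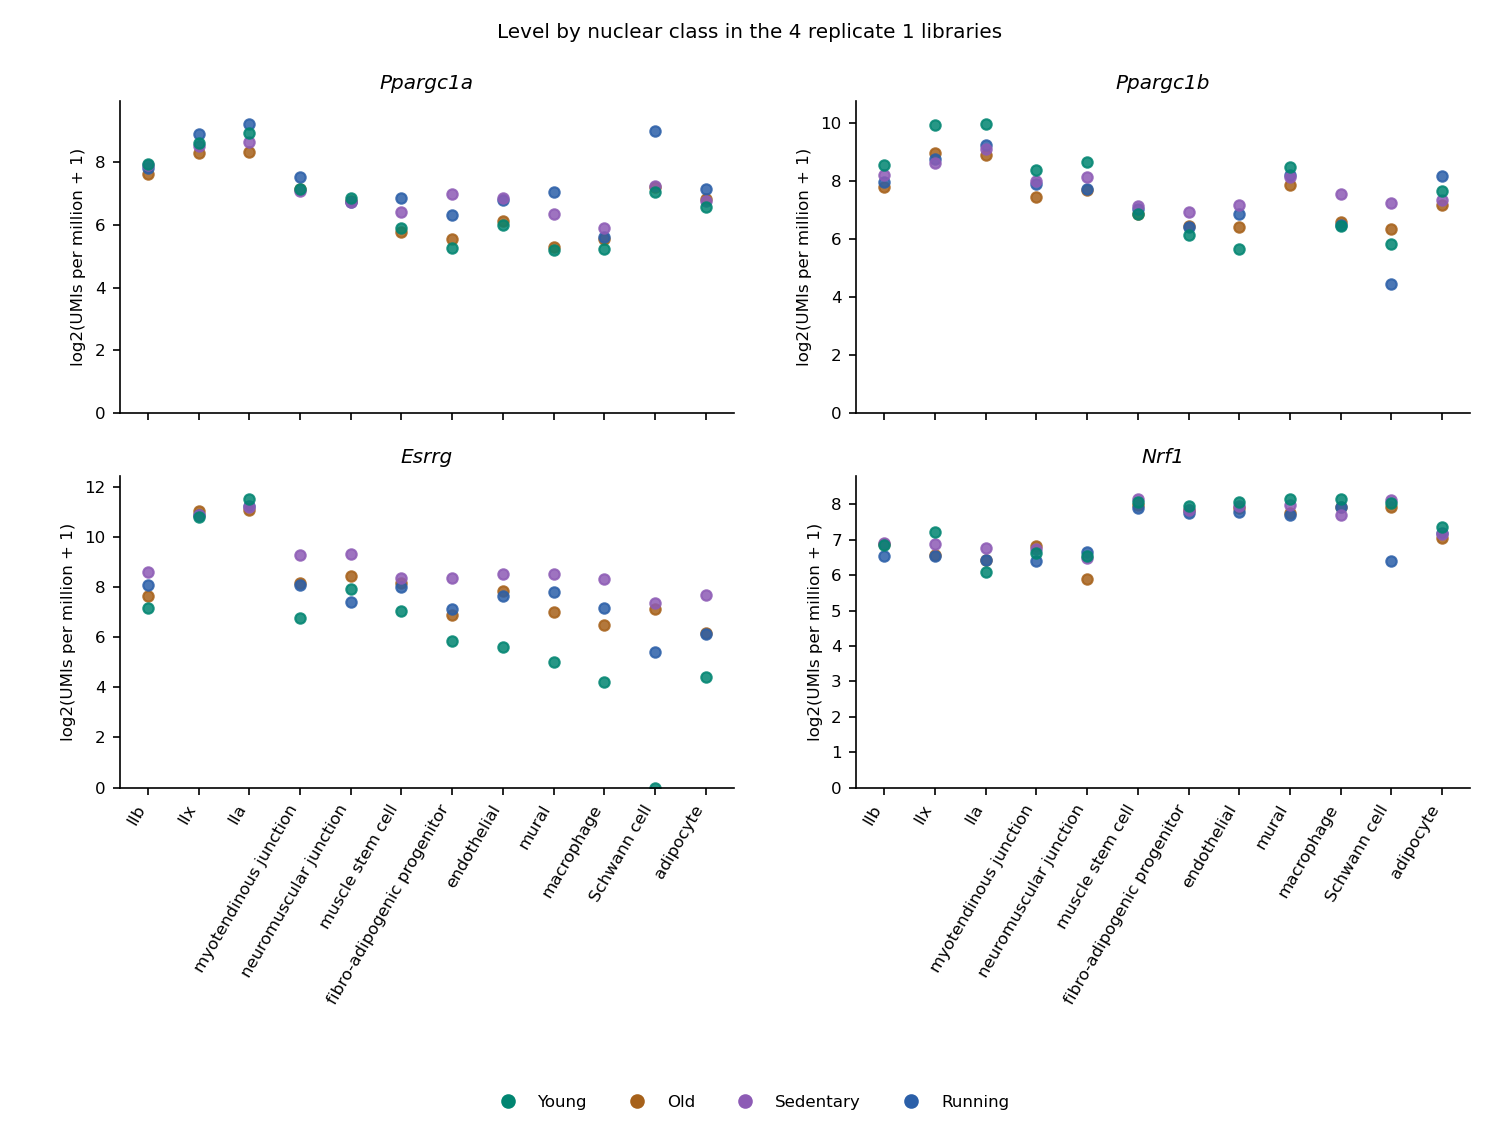
Level of 4 regulators by nuclear class in the 4 replicate 1 libraries (10x set), as log2(CPM + 1), with 1 point per library. Nrf1 is higher in muscle stem cell, endothelial and mural nuclei than in fibre nuclei, Ppargc1b is raised in mural nuclei, and endothelial Esrrg is highest in Sedentary replicate 1.

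Genes whose class pattern was most like that of a regulator were found by Pearson's r of log2(CPM + 1) over 12 classes and fibre types, each a mean of the 4 10x libraries. The classes share libraries and depth, so r is a description. The Schwann cell mean of Ppargc1a, 232 CPM, holds the high value of Running replicate 1 given above. The part of that value in r was not tested. For Ppargc1a the 5 most similar of 9916 genes were Rmdn2 (r = 0.96), Gm16271 (0.94), 1700113H08Rik (0.94), Rhot1 (0.93), which links mitochondria to motor proteins, and Timm17a (0.93), a subunit of a mitochondrial import channel. Esrrg was most similar to Coq8a (0.97), which acts in ubiquinone synthesis, Atp5l (0.96) and Mybpc1 (0.96). Ppara was nearest to Mdh1 (0.95), a malate dehydrogenase, A530013C23Rik (0.94) and Rmnd1 (0.93), and Perm1 to Cpt1b (0.97), the gate of fatty acid entry into muscle mitochondria, Mybpc1 (0.96) and Clip4 (0.96).

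Ageing and training were asked about over all nuclei of a library, in 1 fit of all 8 libraries with the group and the library set as terms. No gene passed between Old and Young or between Running and Sedentary (0 of 20324, 0%, in both, by edgeR and by DESeq2), with 557 and 98 genes at an unadjusted p under 0.05, so no regulator passed either. Fewer cells of a type and less RNA per cell cannot be told apart in such sums.

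Ppargc1a was at 152 and 348 CPM in the 2 Old libraries (replicate 1 first) and 186 and 244 in the Young ones. Running libraries had 220.1 and 255, Sedentary libraries 233 and 217. The groups overlapped in both comparisons. Fitted differences are on the scale of TMM factors, on which the median of all genes was 0.19 for Old against Young, and need not match CPM in sign or size. For Ppargc1a the mean CPM was higher in Old, at 250.1 against 215, while the fitted difference was -0.29 ± 0.35 (adjusted p = 0.72 by edgeR) and 0.09 ± 0.35 for Running against Sedentary (adjusted p = 1). The 95% interval for training ran from 0.665 to 1.70-fold. Within the 10x set Ppargc1a was lower in Old (log2 -0.29), and within the second set it was higher (0.51).

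Ppargc1b had the smallest p-value of the 10 with age, at 202 and 119.7 CPM in Old and 309.8 and 176 in Young. Within each set it was lower in Old (10x, -0.62; second set, -0.55 on the log2 scale), while the groups overlapped across sets. In IIb nuclei alone the corresponding values were -0.77 and 0.20. On the TMM scale the fit gave -0.98 ± 0.37, beyond both within-set CPM differences, with an unadjusted p of 0.029 and an adjusted p of 0.69 by edgeR, which does not pass. Running and Sedentary libraries were at 247 and 188 against 306 and 188 CPM.

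Esrrg spanned a wide range, at 416 and 612 CPM in Old, 177 and 904 for Young, 439 and 405 after Running and 898 and 399.7 for Sedentary. The order of the groups differed between sets, with an Old-against-Young log2 difference of 1.23 among 10x libraries and -0.56 in the other set. For Running against Sedentary it was -1.03 among 10x libraries and 0.02 in the other set. The 10x libraries also differed in the share of typed nuclei that were IIa, which was 11.7% for Old, 0.937% for Young, 2.84% for Running and 20.4% for Sedentary. Within IIb nuclei alone the 10x differences in Esrrg were 0.45 for age and -0.54 for training, smaller than over all nuclei, and the part of the fibre share in the whole-library values was not tested.

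Among 10x libraries Ppara and Esrrb were, like Esrrg, lowest in Young and highest in Sedentary, while Old stood above Running for both and below it for Esrrg. Ppara was at 85.0 and 35.5 CPM in Old and Young and at 77.7 and 159 in Running and Sedentary replicate 1. In the second set it was at 213, 231, 152 and 150.3. Esrrb ran from 2.97 CPM (117 UMIs) in Young replicate 1 to 66.6 in Old replicate 2.

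For the other regulators the groups overlapped with 2 exceptions. Ppard was 65.9 and 65.8 CPM in Old, below 75.6 and 66.8 in Young, an order that 3.53% of all genes share, while 19.5% were higher in Old without overlap. Tfam was 16.4 and 12.5 in Running, above 10.3 and 10.7 in Sedentary, which 7.33% of all genes share, while 12.8% were lower in Running without overlap. Neither passed the test (Ppard -0.51 ± 0.36, adjusted p = 0.69; Tfam 0.46 ± 0.48, adjusted p = 1, by edgeR). Over all nuclei, 3 of the 10 regulators had the same direction in both sets for age and 3 for training. The counts were 7 and 4 in myofibre nuclei, 4 and 3 in IIb nuclei and 7 and 5 at the myotendinous junction. For age alone they were 5 in IIa and 2 in IIx nuclei. The share of all genes with the same direction was not computed.

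**Figure D5:**
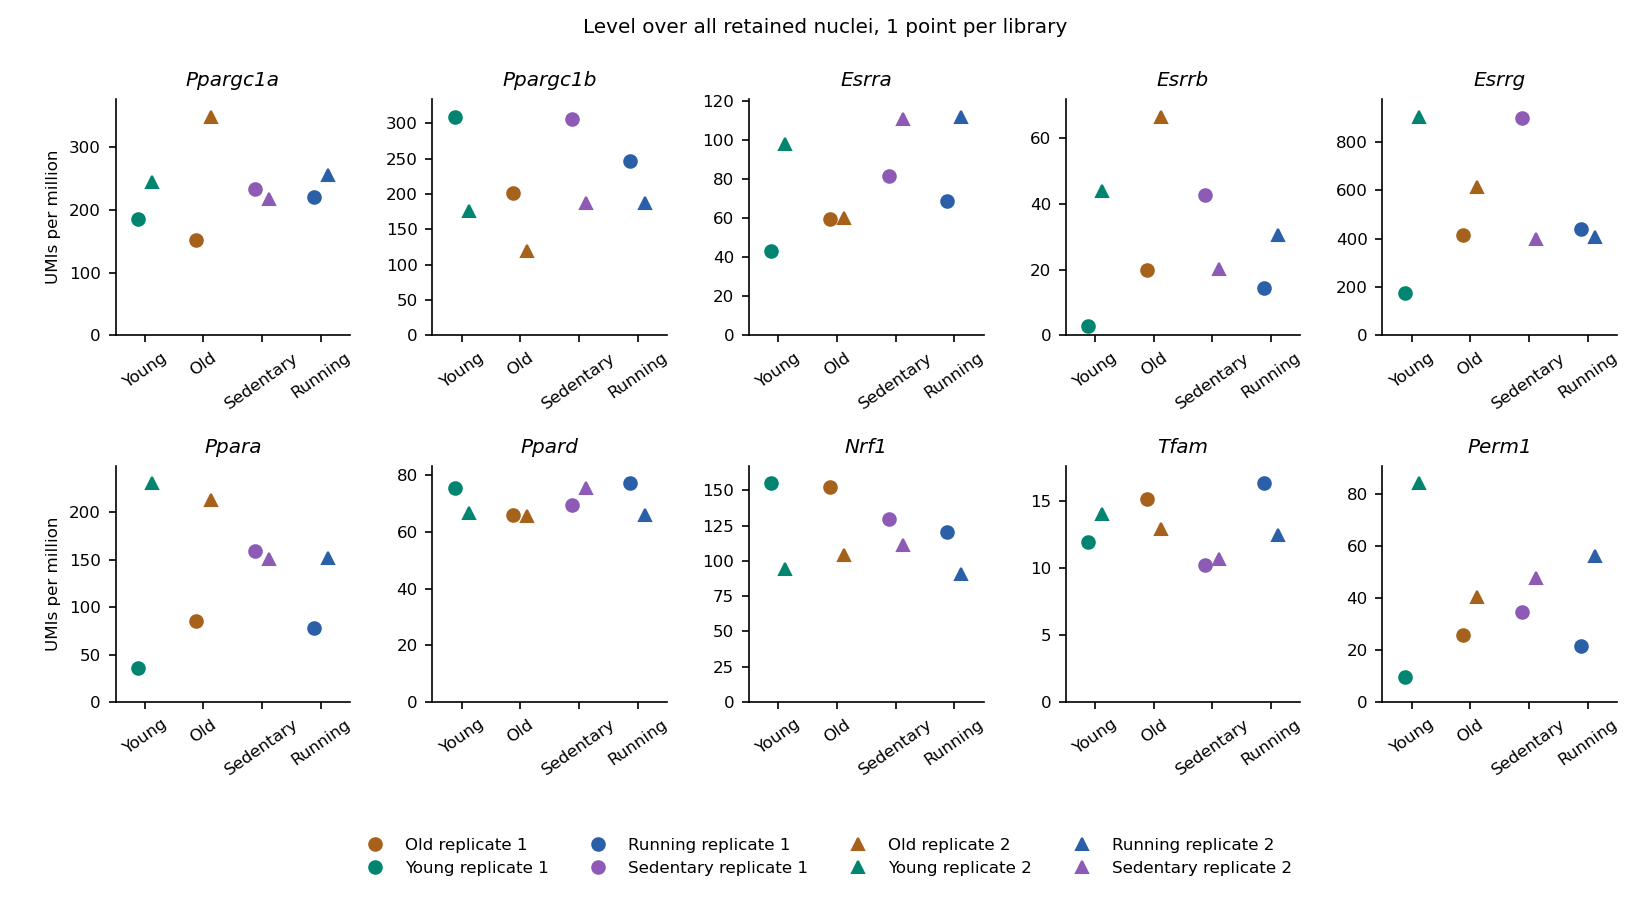
Level of each regulator over all retained nuclei in CPM, with 1 point per library (circles, replicate 1, 10x set; triangles, replicate 2, second set). The 2 libraries of a group often lie farther apart than the groups do, as for Esrrg in Young at 177 and 904.

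The pathway lists gave no call over all nuclei either. The oxidative targets had a median log2 difference of -0.69 for Old against Young, where the median of all genes was 0.19, and of 0.27 for Running against Sedentary, where it was -0.04. With age the list median was smaller within classes, at -0.17 in myofibre nuclei (all genes -0.06), -0.37 in IIb (all genes -0.09), -0.22 in IIa (all genes -0.10) and -0.08 in IIx (all genes -0.07). Myofibre nuclei made up 46.4% of Old and 62.9% of Young replicate 1, and 7.29% and 65.2% of replicate 2. The part of these shares in the whole-library value was not tested. By smallest p-value the lists were led with age by Idh3a, a citric acid cycle enzyme (-1.09 ± 0.37), Mef2c (-1.37 ± 0.52), Pparg (1.99 ± 0.90) and Tfb1m (-0.69 ± 0.47), each with an adjusted p of 0.69 by edgeR. With training they were led by the cytochrome oxidase subunit Cox7a1 (1.35 ± 0.58), Camk4 (-1.13 ± 0.81), Lonp1 (0.68 ± 0.49) and Nrip1 (-0.61 ± 0.46), each with an adjusted p of 1.

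Sums over myofibre nuclei or junction nuclei are not split by fibre type. Within single classes, a test was made wherever each group had libraries with enough nuclei. The regulators were tested in myofibre nuclei, in nuclei of fibre types IIb, IIx and IIa, and at both junctions. None passed in any of these 9 comparisons, in which 0% to 0.0376% of all genes did (0.0376% in IIx with age, 0.0328% at the myotendinous junction with age, 0.0261% at the neuromuscular junction with training and 0% in the other 6). At the myotendinous junction Ppargc1b had the smallest unadjusted p with age (-1.078 ± 0.46, unadjusted p = 0.025, adjusted p = 1 by edgeR). Ppargc1b stood there at 172 CPM in Old and 335 in Young replicate 1, and at 39.7 and 138 in replicate 2. Old replicate 2 held only 23 such nuclei. In IIb nuclei, the largest fibre class, Ppargc1a was at 197 and 249.2 CPM in Old, 243 and 203 for Young, 223 and 210.4 after Running and 237 and 187 for Sedentary, with overlapping groups. Its IIb difference was -0.40 ± 0.40 with age and 0.01 ± 0.39 with training. In myofibre nuclei as a whole the smallest p-value with age was that of Ppargc1b (-0.80 ± 0.41, adjusted p = 1 by edgeR). In IIa nuclei Ppargc1b was at 480.0 against 991 CPM in Old and Young replicate 1 and at 188 against 202 in replicate 2, and the fit gave -0.88 ± 0.67.

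In myofibre nuclei Esrrb passed with age only when Old replicate 2 and Sedentary replicate 1 were both left out (2.05 ± 0.54, adjusted p = 0.023 by edgeR), which leaves 1 Old library against 2 Young ones. Its myofibre level was 28.2 CPM in Old replicate 1 and 2.84 in Young replicate 1, the pair with 593 and 68 IIa nuclei. At the neuromuscular junction Esrrb (-2.65 ± 0.75) and Esrrg (-1.93 ± 0.47) passed lower in Running when Sedentary replicate 2 was left out, which sets Running libraries against Sedentary replicate 1 alone.

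Whether age or training acted differently on IIx than on IIb nuclei was tested as an interaction, with the library as a block. No regulator passed, and 0.0378% and 0.0284% of all genes did. The smallest p-value was that of Esrrb with age, whose Old-against-Young difference was larger in IIx than in IIb by 1.66 ± 0.74 (unadjusted p = 0.025, adjusted p = 1 by edgeR). The 2 sets went in opposite directions. In the 10x set the Old-against-Young difference of Esrrb was 1.57 in IIx and 0.67 in IIb (log2 of CPM plus 1). In the second set it was -1.50 in IIx and -0.25 in IIb. For training the IIx side rests on Running replicate 1 alone, since replicate 2 had 8 IIx nuclei, so that library is assumed to vary like the others. On counts simulated with the estimated spread of each gene, the whole-library test of Old against Young recovered 0% of genes changed by 1 on the log2 scale. It recovered 45% of those changed by 3. The comparison of IIa with IIb recovered 93% and 100%, but on counts simulated with 1 common spread for all genes. The recovery rates of the 2 simulations can therefore not be set against each other. Changed genes were drawn only from those with higher mean counts. Of the unchanged genes, 4 were called in the whole-library test and 12 between IIa and IIb. The fits within classes and the interaction were not simulated.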

How the data were processed

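Nuclei of 8 libraries were analysed. The authors deposited 1 filtered matrix per library holding UMI counts, not normalized, with lists of genes and barcodes. The submitters' processing notes name Cell Ranger 6.1.2, Seurat 4.1.1 and mm10, and the second set was counted with PISA per the methods. Whether intronic reads were counted is not given in the sources used here.

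Nuclei were retained at 200 to 6000 detected genes and a mitochondrial share below 6% (64803 of 65280), and doublets were not removed in the main results. The sets were clustered separately (scanpy 1.11.5, leidenalg 0.10.2) on variable genes without the 10 regulators, and clusters were named from 14 marker lists by limits set after seeing the clusters. Counts were summed per library and class (at least 20 nuclei), leaving out 12 mitochondrial and 83 ribosomal protein genes. Sums were tested with edgeR 4.0.16 (quasi-likelihood, TMM factors, low counts filtered, Benjamini-Hochberg over all genes tested, threshold 0.05), with the library set as a term between groups and the library as a block between fibre types. Myosin genes used for typing were left out of the fibre fits. The 95% intervals come from the SE by a normal approximation, and limits from a count of 0 cover counting error only. Log2 differences within a set add 1 CPM. Tests were checked on simulated data.

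The regulators, gene lists and tests were chosen with earlier results of these data known. Genes were named by rule: the 10 regulators, up to 6 called genes per list and comparison (the 1 of smallest p where none was called), and the genes most similar to 4 regulators. Alternatives were other size factors, DESeq2 1.42.0, no filter, other model terms, other typing limits, each set alone, doublet removal and libraries left out. Gene lengths are from GENCODE on GRCm38.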

Additional observations from a re-analysis of the deposited data

Results flagged for a closer look

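Differences between fibre types were screened for a library far from the rest, by the gap to its neighbour relative to the range, in 20 sets of 7 libraries, of which chance alone flags about 1 in 20. Old replicate 2 was the library in each of the 5 that passed. Its IIa level minus its IIb level was -4.70 for Esrrb, -5.10 for Ppard and -6.53 for Tfam (log2 of CPM plus 1), each from a IIa sum without a UMI of that gene among 31987 UMIs. Such a 0 allows up to 93.8 CPM by counting error alone, above the IIb levels of 24.9, 33.2 and 91.4 CPM. The size of these differences therefore depends on the 1 CPM that was added. Tfam was also at -6.53 for IIx minus IIb, with 0 of 45368 UMIs in IIx and 11 UMIs in IIb. Here the 0 allows up to 66.1 CPM, below the IIb level of 91.4 CPM. Ppargc1a was at 1.956 for IIx minus IIb in that library, from 44 UMIs in 33 nuclei.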

How the results depend on the processing

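Values are log2 differences. Leaving out Old replicate 2 and Sedentary replicate 1 together, chosen after seeing the data, left 7 regulators higher in IIa than in IIb and turned the sign of uncalled values: with age Esrra 0.14, Esrrg 0.29, Ppara 0.57 and Perm1 0.73, with training Esrra 0.065, Esrrb 1.35, Esrrg 0.68, Ppara 0.44 and Perm1 0.66 (Ppara 0.45 in myofibre nuclei and 0.45 at the myotendinous junction), and Tfam 0.045 in IIa against IIb. It gave 178 genes with age, 15 with training, 227 between IIa and IIx, and 1 regulator both there and in myofibre nuclei with age. With only the 4 libraries compared, 4 genes passed with age and 81 with training, Ppara with age was 0.20 and Ppard with training 0.080. Ppard with training was also 0.025 with DESeq2 size factors, 0.025 with DESeq2 and 0.0010 without likely doublets.

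Between fibre types, Tfam in IIa against IIb was 0.0021 and 0.10 under looser and stricter typing, 0.013 with DESeq2 size factors, 0.10 in the 10x set alone and 0.012 with long-gene clusters counted as myofibre. Ppard in IIa was -0.059 without a filter and -0.32 in the second set. In IIx Tfam was -0.083 under looser typing, -0.13 without a filter and -0.94 in the second set, and Ppard 0.14 under stricter typing, 0.0020 with DESeq2 size factors and 0.10 in the 10x set. In slow nuclei Ppard was -0.051 without a filter. The second set alone gave 375 genes and 5 regulators in IIa, 102 genes and 3 regulators in IIx, and 49 genes and 0 regulators between IIa and IIx, where the 10x set gave 786 genes. Without a filter 2 regulators passed between slow and IIa. Counts of regulators in this section stand without the share of all genes that passed in the same setting. They show only how calls shift with the processing.

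Replicate numbers follow accession order and mark the library set, so they pair no animals. With no replicate block (set and group terms), 216 genes and 0 regulators passed between IIa and IIx, 1160 genes in IIx against IIb and 291 between slow and IIa.

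Leaving out 1 library at a time gave these ranges over all nuclei. With age they were -1.23 to 0.08 for Esrra, -0.37 to 2.92 for Esrrb, -1.39 to 1.21 for Esrrg, -0.85 to 1.13 for Ppara, -1.37 to 0.95 for Perm1 and -0.71 to 0.029 for Tfam. With training they were -0.26 to 0.05 for Esrra, -1.84 to 1.05 for Esrrb, -1.28 to 0.43 for Esrrg, -1.15 to 0.22 for Ppara, -0.64 to 0.26 for Perm1, -0.51 to 0.19 for Nrf1, -0.30 to 0.32 for Ppard, -0.068 to 0.28 for Ppargc1a and -0.42 to 0.11 for Ppargc1b. Ppara with training ranged from -1.44 to 0.37 in myofibre nuclei and from -1.65 to 0.44 at the myotendinous junction, and Esrrg from -1.93 to 0.80 at the neuromuscular junction, where 0 to 2 regulators passed. Ppard ranged from -0.023 to 0.22 in IIa and -0.11 to 0.030 in IIx, and Tfam from -0.22 to 0.046 and -0.18 to 0.12. Genes called ranged from 0 to 8 with age (8 without Sedentary replicate 1), 0 to 423 with training (423 without Sedentary replicate 2) and 247 to 691 between IIa and IIx, with 0 to 2 regulators. Where a lone library stood for a group, it was assumed to vary like the others. The cause of these changes was not tested.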
